A study of Mus musculus with 4 samples.

Results

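The circadian clock genes examined here were Arntl, Npas2, Per1, Per2, Per3, Cry1, Nr1d1, Dbp, Tef and Bhlhe41, 10 of the 22103 transcript entries of the deposited expression table, taken by gene name. All 10 were found once each and all 10 had a mean of at least 0.1 FPKM over the livers, the minimum used for testing, which 12346 entries met. RNA-seq had been run on liver from 2 wild type mice (WT) and 2 mice with hepatocyte conditional knockout of Brg1 (LKO, labelled KO), which came from a cross of Smarca4 f/f with Alb-Cre mice. Whether the WT littermates carried the floxed allele was not given in the sources used here. The mice were male and 8 weeks old, and all 4 had been through the NIAAA model, in which an ethanol diet ends with a gavage of ethanol, so that there was no group without alcohol. The labels give 15 days of alcohol and the methods a diet of 2 weeks. The Alb promoter drives Cre in hepatocytes, and the other cells of the liver keep Brg1, the ATPase of a chromatin remodelling complex that Smarca4 encodes. The hour at which the livers were taken was not given in the sources used here. The comparison of LKO with WT asked whether the clock genes differed between the genotypes, and the comparison of single livers asked whether the 4 livers shared a point of the cycle.

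The mammalian clock is a feedback loop of transcription. BMAL1, encoded by Arntl, pairs with CLOCK or NPAS2, binds E-boxes and activates the Per and Cry genes, whose proteins return to repress that pair. A loop beside it runs through Nr1d1, whose product REV-ERB alpha represses Arntl and Npas2 at ROR elements, and a further limb runs through the PAR bZIP factors Dbp and Tef, which act at D-boxes. In mouse liver Arntl and Npas2 are known to crest around the end of the night and Cry1 late in the night, while Nr1d1, Dbp, Tef, Bhlhe41 and the Per genes crest during the day or the early night, so that the balance of the arms reads as a time of day.

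The elements of these limbs were looked for in promoter windows from RefSeq (GRCm38.p6), each of 300 bases, from 250 bases before a gene's start to 50 bases after it. Of the members, 9 matched a window, all but Per2, and they had 12 windows. Both strands were searched for the E-box CACGTG, the D-box TTATGTAA or TTACGTAA and the ROR element TAGGTCA or TGGGTCA, and no hits overlapped one another. An E-box stood in windows of 4 members (Per1, Cry1, Tef and Bhlhe41) against 7.15% of all 32851 promoter windows, a D-box in that of 1 member (Per3) against 1.06%, and a ROR element in that of 1 member (Arntl) against 6.45%. The counts are of genes and the shares are of windows, and Arntl, Per1 and Tef had more than 1 window each. The windows of Npas2, Nr1d1 and Dbp held none of these letters. Windows with each kind of element are shown for 3 members, together with that of Ciart, a repressor of the loop whose level separated the LKO livers most among the core clock genes below. Each is given 5′ to 3′ on the strand of its gene with the elements in capitals. In bases counted from the start, the ROR element of Arntl lies at 31 (chr7:113207261-113207560, plus strand), the E-box of Per1 at -166 (chr11:69098699-69098998, plus strand), the 2 D-boxes of Per3 at -205 and -158 (chr4:151044616-151044915, minus strand), and the 3 E-boxes of Ciart at -116, -58 and -44 (chr3:95882179-95882478, minus strand).
Arntl: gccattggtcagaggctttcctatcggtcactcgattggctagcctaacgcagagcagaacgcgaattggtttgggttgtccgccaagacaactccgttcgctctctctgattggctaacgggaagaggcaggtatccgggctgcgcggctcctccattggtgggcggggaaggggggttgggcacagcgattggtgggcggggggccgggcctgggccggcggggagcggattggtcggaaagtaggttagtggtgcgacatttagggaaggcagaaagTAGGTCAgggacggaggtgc
Per1: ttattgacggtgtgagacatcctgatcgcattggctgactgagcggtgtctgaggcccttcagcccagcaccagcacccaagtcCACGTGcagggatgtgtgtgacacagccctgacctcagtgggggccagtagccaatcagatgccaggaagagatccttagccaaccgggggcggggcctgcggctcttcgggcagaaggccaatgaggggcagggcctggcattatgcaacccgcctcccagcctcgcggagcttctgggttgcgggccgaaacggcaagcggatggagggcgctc
Per3: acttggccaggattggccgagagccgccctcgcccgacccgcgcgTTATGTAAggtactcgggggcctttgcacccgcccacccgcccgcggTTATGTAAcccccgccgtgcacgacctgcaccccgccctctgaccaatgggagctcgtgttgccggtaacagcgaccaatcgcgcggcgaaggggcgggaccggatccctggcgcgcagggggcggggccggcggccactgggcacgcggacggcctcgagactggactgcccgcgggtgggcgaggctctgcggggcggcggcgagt
Ciart: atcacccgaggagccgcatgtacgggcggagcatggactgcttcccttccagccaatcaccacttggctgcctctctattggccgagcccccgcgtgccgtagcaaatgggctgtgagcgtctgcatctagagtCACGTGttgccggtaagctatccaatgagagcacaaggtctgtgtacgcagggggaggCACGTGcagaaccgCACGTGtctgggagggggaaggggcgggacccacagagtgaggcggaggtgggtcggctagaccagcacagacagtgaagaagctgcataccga
A match describes letters in these windows and was not set against any binding data.

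Estimated from FPKM, transcript length and library totals, the 4 libraries held 72535900 to 80847900 reads on genes, so that the 10 clock genes rested on 27 to 1238 reads each per liver. Smarca4 was measured at 1.78 and 1.95 FPKM in WT and at 0.608 and 0.579 FPKM in LKO, 31.8% of the WT mean, which matched the labels. Hepatocyte markers summed to between 26400 and 31801 FPKM per liver. FPKM divides by the total of each library, and the table carried no further scaling between libraries. Most genes sat higher in replicate 2 of each genotype, in 80.3% of genes for WT and 73.2% for LKO. Differences between single livers are therefore also given after median-ratio rescaling, which brought these shares to 48.6% and 50.5%. In whole liver, fewer cells of a type and less RNA per cell cannot be told apart.

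None of the 10 clock genes passed the threshold of an unadjusted p under 0.05 together with a change of over 2-fold between LKO and WT by limma on log2(FPKM + 0.1), where 0.980% of all genes tested did (0.437% higher and 0.543% lower in LKO). One of the 10, Npas2, had an unadjusted p under 0.05, against 2.00% of all genes. The adjusted p (limma, Benjamini-Hochberg) was 1.00 for each of the 10, and no gene of the table reached an adjusted p under 0.05, which is a share of 0.00%. Of the 10 log2 fold changes 5 were above 0 and 5 below, with a median of 0.02, beside a median of -0.02 over all genes tested. The standard errors of the log2 fold changes ran from 0.34 to 0.46. With 2 livers a group an exact permutation test of a single gene cannot go below p = 0.33.

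**Figure D1:**
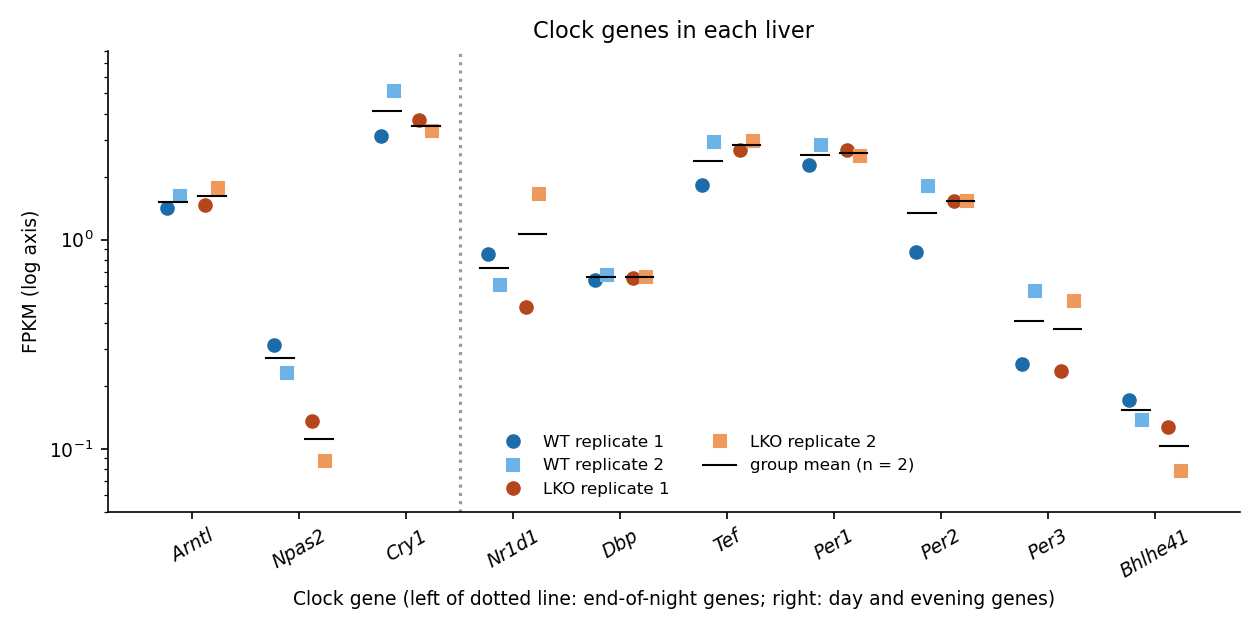
FPKM (log axis) of each of the 10 clock genes in the 2 WT and the 2 LKO livers, 1 point per liver, with a bar at the mean of each group. Arntl, Per1 and Dbp sit at like levels in the 4 livers, Npas2 is lower in both LKO livers, and Nr1d1 is highest in LKO replicate 2 (1.65 FPKM) and lowest in LKO replicate 1 (0.475 FPKM).

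Among the members of the end of the night, Arntl (chr7:113207465-113314126, plus strand, 20 exons, GRCm38) encodes the partner that every activator of the loop needs. Its level was 1.42 and 1.62 FPKM in WT and 1.47 and 1.76 FPKM in LKO. As deposited the groups overlapped and replicate 2 was the higher liver in each. After rescaling the levels were 1.56 and 1.43 FPKM in WT and 1.66 and 1.59 FPKM in LKO. On that scale replicate 2 was the lower liver in each, and both LKO livers lay above both WT livers. The log2 fold change was 0.08 (SE 0.34, unadjusted p = 0.814 by limma, n = 2 a group).

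Npas2 (chr1:39194212-39363236, plus strand, 21 exons) encodes a paralog of CLOCK that can take its place beside BMAL1. It stood at 0.315 and 0.231 FPKM in WT and at 0.136 and 0.0878 FPKM in LKO. Both LKO livers lay below both WT livers, and the 95% counting intervals of the closest pair, WT replicate 2 (0.182 to 0.288 FPKM) and LKO replicate 1 (0.0992 to 0.182 FPKM), met at their edge. The means were 0.273 ± 0.0598 FPKM in WT and 0.112 ± 0.0340 FPKM in LKO (SD, n = 2 each), a 2.44-fold lower level in LKO. On the log2(FPKM + 0.1) scale, which shrinks low genes, the change was -0.82 (SE 0.37, unadjusted p = 0.0446, adjusted p = 1.00 by limma with Benjamini-Hochberg), short of the 2-fold limit. On estimated reads with limma's voom it was -1.29 (unadjusted p = 0.0339, adjusted p = 1.00 by Benjamini-Hochberg), which is past the limit, and the adjusted p ranged from 0.227 to 1.00 over the alternatives run. The gene rested on 108 and 78 reads in WT and on 45 and 27 reads in LKO.

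Cry1 (chr10:85131700-85185064, minus strand, 13 exons), a repressor of the BMAL1 pair, had the highest level of the 10 in each of the 4 livers. It was at 3.13 and 5.12 FPKM in WT and at 3.71 and 3.31 FPKM in LKO. The LKO livers lay between the WT livers, with a log2 fold change of -0.19 (SE 0.36, unadjusted p = 0.606 by limma, n = 2 a group).

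Among the members of the day and evening, Nr1d1 (chr11:98767932-98775333, minus strand, 8 exons) varied most. REV-ERB alpha, its product, is the repressor that sets the rhythm of Arntl. Its level was 0.849 and 0.607 FPKM in WT, and 0.475 and 1.65 FPKM in LKO. The LKO livers held both the lowest and the highest value, as deposited 3.47-fold apart, or 2.77-fold after rescaling, on 101 and 325 reads. The range over the 4 livers was wider than in 95.2% of all genes tested, or 92.3% after rescaling. The log2 fold change was 0.29 (SE 0.46, unadjusted p = 0.541 by limma). Without LKO replicate 1 it was 1.09 and without LKO replicate 2 it was -0.51, each time with a single LKO liver left. Nr1d1 overlaps Thra on the opposite strand, and whether the counting used strand was not given in the sources used here. The overlapping gene stood at 0.947, 1.14, 1.19 and 1.28 FPKM in WT replicates 1 and 2 and LKO replicates 1 and 2, a narrower range.

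Dbp (chr7:45705088-45710203, plus strand, 4 exons), whose transcript has one of the widest daily swings in the liver, was nearly level. It stood at 0.642 and 0.679 FPKM in WT and at 0.658 and 0.662 FPKM in LKO. The highest liver was 1.06-fold over the lowest, or 1.24-fold after rescaling, and only 0.0891% of all genes tested had a narrower range, or 16.7% after rescaling. The gene rested on 88 to 99 reads a liver, and the 95% counting intervals of all 4 livers overlapped. It overlaps Sphk2 on the opposite strand, whose level was 6.23 to 8.11 FPKM.

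Tef (chr15:81802421-81826863, plus strand, 4 exons) belongs to the same PAR bZIP family. It was at 1.83 and 2.94 FPKM in WT and at 2.68 and 2.97 FPKM in LKO, with WT replicate 1 apart from the other livers. The log2 fold change was 0.27 (SE 0.36, unadjusted p = 0.462 by limma, n = 2 a group). Bhlhe41 (chr6:145858243-145865558, minus strand, 5 exons), which encodes the E-box repressor DEC2, had the lowest level of the 10 in each liver, on 35 to 85 reads. It stood at 0.171 and 0.137 FPKM in WT and at 0.127 and 0.0786 FPKM in LKO. The LKO values were the lower ones, with a log2 fold change of -0.33 (SE 0.37, unadjusted p = 0.388 by limma), and the groups overlapped after rescaling.

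The Per genes encode the other repressors of the loop, and Per1 and Per2 also answer to glucocorticoid and feeding signals. Per1 (chr11:69098948-69109960, plus strand, 23 exons) was at 2.27 and 2.83 FPKM in WT and at 2.69 and 2.51 FPKM in LKO. Both LKO values lay within the WT range, with a log2 fold change of 0.03 (SE 0.34, unadjusted p = 0.921 by limma). Per2 (chr1:91415982-91459324, minus strand, 23 exons) was at 0.877 and 1.80 FPKM in WT and at 1.52 and 1.53 FPKM in LKO. WT replicate 1 was low and the LKO livers were nearly equal as deposited and 1.25-fold apart after rescaling, with a log2 fold change of 0.26 (SE 0.38, unadjusted p = 0.512 by limma). Per3 (chr4:151003652-151044665, minus strand, 21 exons), which overlaps Camta1 on the same strand, was at 0.253 and 0.567 FPKM in WT and at 0.237 and 0.507 FPKM in LKO. Replicate 2 was 2.24-fold over replicate 1 in WT and 2.14-fold in LKO, or 1.81-fold and 1.71-fold after rescaling, and between the genotypes the log2 fold change was -0.10 (SE 0.42, unadjusted p = 0.811 by limma). Replicate numbers are treated only as names here, since the labels tie no WT mouse to the LKO mouse of the same number. Most genes sat higher in replicate 2 of each genotype as deposited, as given above.

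In all, 2 of the 10 members (Npas2 and Bhlhe41, both lower in LKO) had groups that did not overlap, against 20.7% of all genes tested. After rescaling or quantile normalization these were Arntl, Npas2 and Tef, so that Npas2 was the member found under each of the 3 scalings. The share of all genes was not computed on the latter scales, so nothing is drawn from these names.

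**Figure D2:**
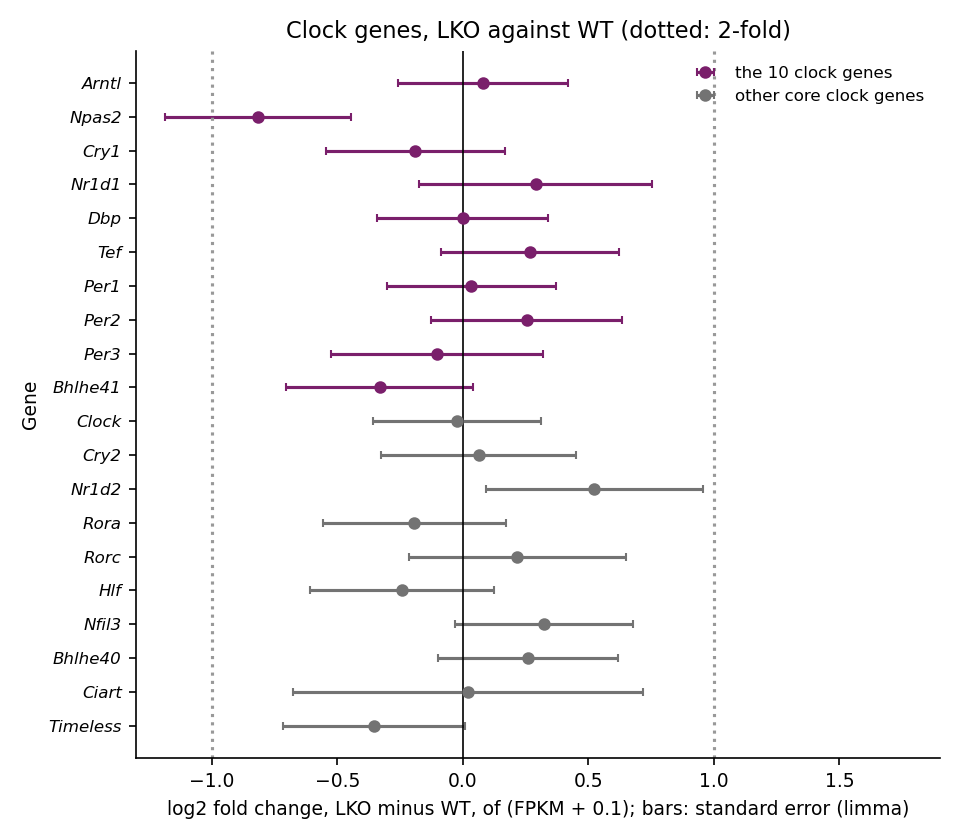
Log2 fold change of LKO against WT on log2(FPKM + 0.1) for the 10 members and 10 other core clock genes, with bars for the standard error from limma (n = 2 livers a group) and dotted lines at 2-fold. The 10 members lie between -0.82 (Npas2) and 0.29 (Nr1d1), all inside the 2-fold lines.

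Whether the livers shared a point of the cycle was described by a contrast, the mean log2(FPKM + 0.1) of Arntl, Npas2 and Cry1 minus that of the 7 genes of the day and evening, given without a test. A liver taken near the end of the night has a higher value on this scale than one taken late in the day. The contrast came to 0.59 and 0.44 in WT and to 0.34 and -0.05 in LKO, with means of 0.52 ± 0.10 in WT and 0.15 ± 0.28 in LKO (SD, n = 2 each). Both LKO livers lay below both WT livers, by -0.37 between the means. The contrast without Npas2, an alternative chosen after seeing the data, was 1.39 and 1.50 in WT and 1.47 and 1.20 in LKO. That was a difference of -0.11 with overlapping groups. Over the 5 members with a mean of at least 1 FPKM, which also leaves Npas2 out, the difference was -0.24. Without LKO replicate 2 the difference of the full contrast was -0.17, and without LKO replicate 1 it was -0.56. The widest gap between any 2 livers in the full contrast was 0.63.

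Ratios between members within a liver do not depend on the scaling of the libraries. Dbp over Arntl, which pairs genes of opposite arms, was 0.452 and 0.420 in WT and 0.448 and 0.375 in LKO, 1.20-fold from the lowest to the highest. Per1 over Arntl spanned 1.29-fold and Tef over Arntl 1.42-fold. Per2 over Arntl spanned 1.80-fold, with WT replicate 1 low at 0.617 and the others between 0.866 and 1.11, and Per3 over Arntl 2.18-fold, with replicate 1 of each genotype low. The 4 livers thus lay close together on the ratios of Dbp, Per1 and Tef and less so on those of Per2 and Per3. Nr1d1 over Arntl spanned 2.88-fold, at 0.598 and 0.376 in WT and at 0.324 and 0.932 in LKO, and Npas2 over Arntl 4.46-fold, at 0.222 and 0.143 in WT and at 0.0927 and 0.0498 in LKO. The former set the LKO livers apart from each other, and the latter was lower in both LKO livers than in both WT livers.

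**Figure D3:**
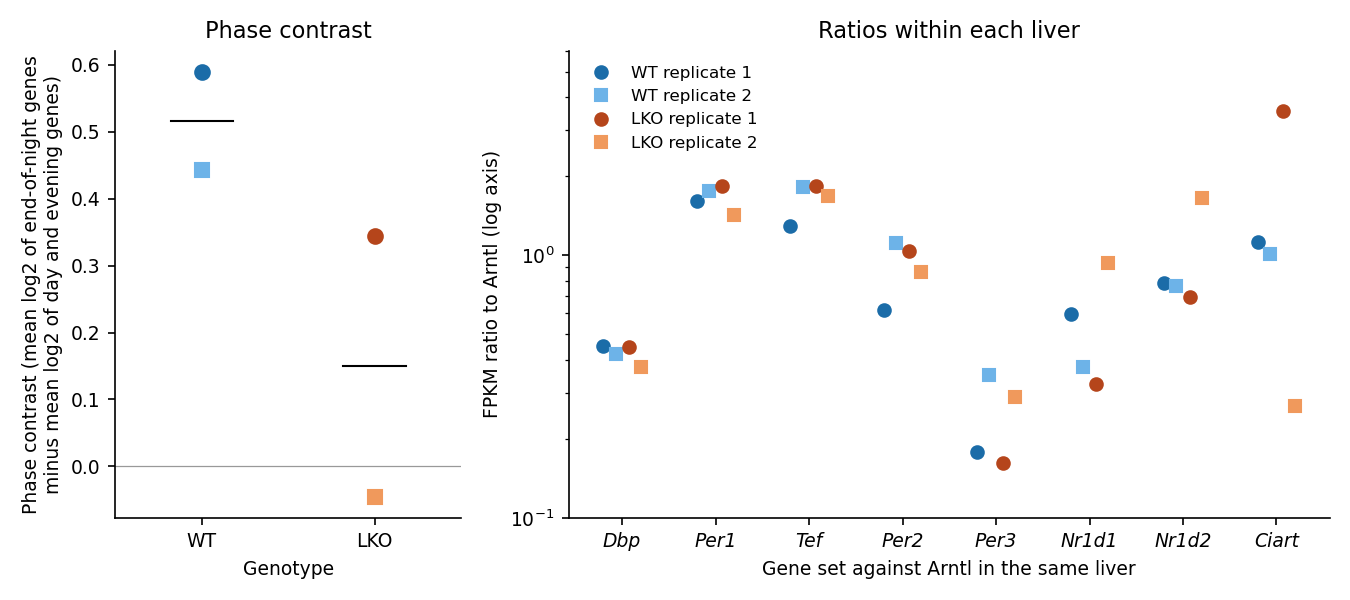
Left, the phase contrast of each liver (log2 units) with a bar at each group mean; right, the FPKM ratio to Arntl on a log axis for 6 members, Nr1d2 and Ciart, 1 point per liver. The contrast runs from 0.59 in WT replicate 1 to -0.05 in LKO replicate 2, and the ratio of Dbp to Arntl is nearly flat while those of Nr1d1 (0.324 to 0.932) and Ciart (0.266 to 3.54) spread.

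None of the 10 members differed by over 2-fold between the WT livers on log2(FPKM + 0.1), where 3.59% of all genes did, or 2.59% after rescaling. Between the LKO livers 1 of the 10 did, Nr1d1, where 12.0% of all genes did, or 9.48% after rescaling. The LKO livers differed from each other at more genes than the WT livers did, in the table as a whole. After rescaling 2 of the 10 members, Nr1d1 and Per3, were higher in LKO replicate 2 than in LKO replicate 1, beside 50.5% of all genes. The median absolute log2 difference of the 10 members between 2 livers, as deposited, ran from 0.18 (WT replicate 2 and LKO replicate 1) to 0.63 (WT replicate 1 and LKO replicate 2), and the pairs within a genotype, at 0.38 for WT and 0.21 for LKO, were inside that range. After rescaling the range was 0.17 (WT replicate 2 and LKO replicate 2) to 0.44, and the pair of LKO livers had the widest median of the 6 pairs at 0.443, next to 0.436 for WT replicate 1 and LKO replicate 2, while the WT pair stood at 0.39.

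The rest of the pathway was read from lists of 33 genes, of which 32 were tested. None passed the threshold by limma, and 1, Cyp2b10, had an unadjusted p under 0.05. The log2 fold changes were above 0 for 13 and below 0 for 19, with a median of -0.08. The lists held 10 other core factors (median 0.04), 10 tested modifiers of clock proteins (median -0.01) and 12 liver outputs of the clock (median -0.35). In 6 of the 32 the groups did not overlap (Timeless, Wee1, Avpr1a and Cyp2b10 lower in LKO, Csnk2a1 and Fbxw11 higher), beside the 20.7% of all genes given above. With 1 liver left out a single liver remains in 1 group, so counts past the threshold from those fits are not given in this section.

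Of the core factors, Clock, the usual partner of BMAL1, was at 1.94 and 2.21 FPKM in WT and at 1.95 and 2.13 FPKM in LKO, as level as Arntl. Nr1d2, which encodes REV-ERB beta, followed Nr1d1, at 1.11 and 1.24 FPKM in WT and at 1.01 and 2.92 FPKM in LKO (log2 fold change 0.52, unadjusted p = 0.246 by limma, n = 2 a group). Both REV-ERB genes were highest in LKO replicate 2, as deposited and after rescaling. They were lowest in LKO replicate 1 as deposited, whereas after rescaling Nr1d2 was lowest in WT replicate 2 (1.10 FPKM) and Nr1d1 was nearly equal in WT replicate 2 (0.539 FPKM) and LKO replicate 1 (0.537 FPKM). Timeless, which takes part in DNA replication forks and whose part in the mammalian clock is debated, was at 0.286 and 0.211 FPKM in WT and at 0.154 and 0.190 FPKM in LKO (log2 fold change -0.35, unadjusted p = 0.347 by limma).

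Other genes of the loop and its outputs differed between the LKO livers in either direction, and those named here were chosen after their values were seen. Ciart, which encodes the repressor CHRONO and held 3 E-boxes in the window shown above, was at 1.59 and 1.63 FPKM in WT and at 5.20 and 0.469 FPKM in LKO, on 787 and 66 reads in the latter. LKO replicate 1 was 11.1-fold over LKO replicate 2, or 13.9-fold after rescaling, while the WT livers were nearly equal as deposited. Ciart over Nr1d1 within a liver was 1.88 and 2.68 in WT and 10.9 and 0.285 in LKO, a 38.4-fold span. Cry2, a paralog of Cry1, was at 1.94 and 2.73 FPKM in WT and at 3.40 and 1.70 FPKM in LKO. Among the outputs, Lpin1, a phosphatidate phosphatase and coactivator of fatty acid oxidation, was at 21.0 and 21.6 FPKM in WT and at 67.3 and 4.81 FPKM in LKO, 14.0-fold apart. The same order of the LKO livers was found for Alas1, the first enzyme of haem synthesis (267 and 72.7 FPKM), for Por, the electron donor of the P450 enzymes (88.2 and 28.4 FPKM), and for Cyp2a5 (246 and 51.5 FPKM). In WT Alas1 stood at 122 and 179 FPKM, Por at 53.5 and 69.8 FPKM and Cyp2a5 at 65.4 and 250 FPKM. Cyp2a5 was thus 3.82-fold apart between the WT livers and 4.78-fold apart between the LKO livers. The opposite order, that of Nr1d1 in the LKO livers, was found for Cyp7a1, the rate-limiting enzyme of bile acid synthesis (0.423 and 2.82 FPKM in LKO, and 0.838 and 2.75 FPKM in WT), for Nr1i3, which encodes the receptor CAR (9.37 and 25.0 FPKM in LKO, and 16.0 and 37.3 FPKM in WT), for Elovl3, a fatty acid elongase (4.42 and 10.3 FPKM in LKO, and 7.44 and 13.6 FPKM in WT), and for the deacetylase gene Sirt1 (2.05 and 5.16 FPKM in LKO, and 3.37 and 3.68 FPKM in WT). As deposited, Cyp7a1, Nr1i3, Elovl3 and Sirt1 were higher in WT replicate 2 than in WT replicate 1, unlike Nr1d1. In none of these did the WT and LKO groups differ by the threshold, with an unadjusted p of 0.975 for Ciart and 0.770 for Lpin1 by limma. Of the 32 tested genes 11 differed by over 2-fold between the LKO livers, 5 of them higher in LKO replicate 2 and 6 lower, and 5 differed between the WT livers, against the 12.0% and 3.59% of all genes given above.

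**Figure D4:**
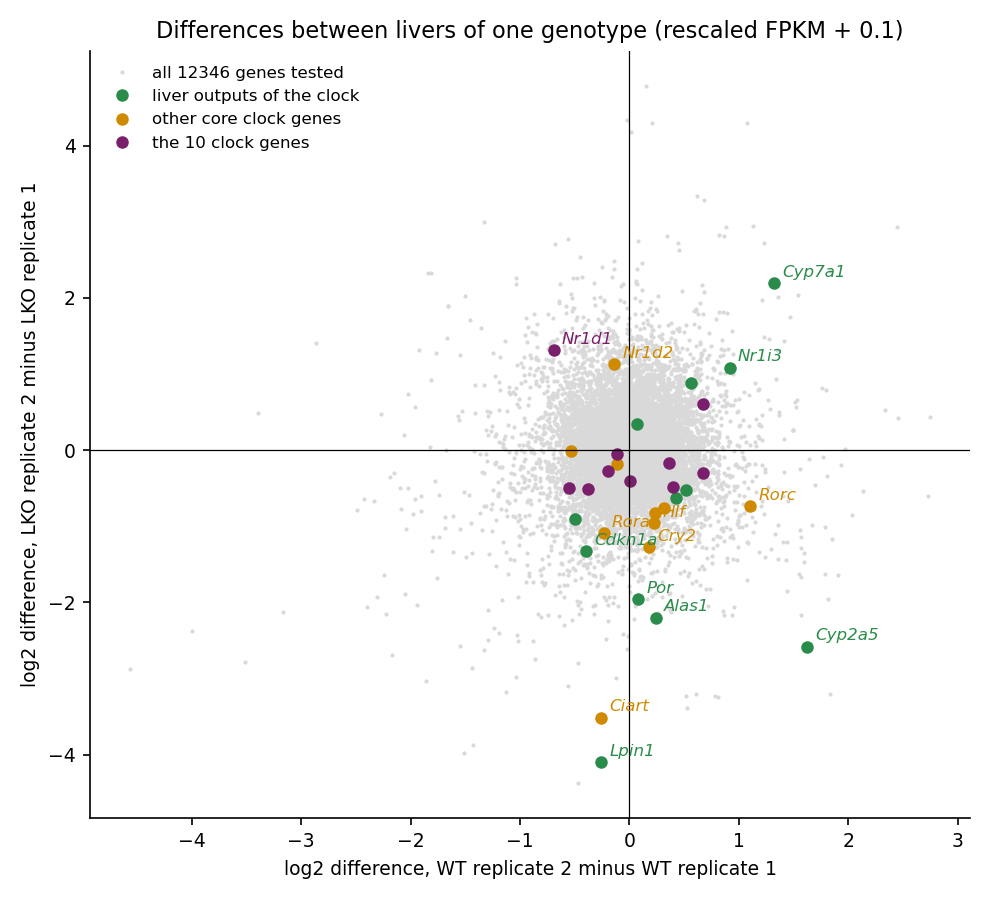
Log2 difference between the 2 WT livers (horizontal axis) and between the 2 LKO livers (vertical axis) after rescaling, 1 point per gene, with the 10 members, the other core clock genes and the liver outputs of the clock in colour over all 12346 genes tested. Most members lie near the centre, Nr1d1 and Nr1d2 lie above it, and Ciart and Lpin1 lie far below it.

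Among the modifiers, Usp2, a deubiquitinase of clock proteins, was at 0.383 and 1.36 FPKM in WT and at 0.605 and 0.296 FPKM in LKO (log2 fold change -0.67, unadjusted p = 0.189 by limma, n = 2 a group). Csnk2a1, a catalytic subunit of casein kinase 2, was at 3.81 and 4.52 FPKM in WT and at 4.94 and 5.12 FPKM in LKO (log2 fold change 0.27, unadjusted p = 0.429 by limma). The LKO values of Csnk2a1 lay above both WT values, and those of Usp2 overlapped the WT range. Among the outputs, Cyp2b10, a P450 enzyme induced through the receptor CAR, was at 33.9 and 29.6 FPKM in WT and at 23.1 and 15.4 FPKM in LKO (log2 fold change -0.75, unadjusted p = 0.048 by limma), below both WT livers in each LKO liver. The vasopressin receptor gene Avpr1a was at 4.26 and 5.55 FPKM in WT and at 2.25 and 3.59 FPKM in LKO (log2 fold change -0.75, unadjusted p = 0.056 by limma).

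Signals that reset or mask the liver clock were read from the same livers, and their part in the levels of the clock genes was not tested. Of 8 glucocorticoid-responsive genes none passed the threshold by limma, also none at an unadjusted p under 0.05. The largest change among them was that of Tat, the tyrosine aminotransferase, at 158 and 158 FPKM in WT and at 412 and 126 FPKM in LKO (log2 fold change 0.53, unadjusted p = 0.259 by limma, n = 2 a group), with LKO replicate 1 the highest liver, as for Ciart. Of 10 genes that follow feeding 1 passed the threshold, lower in LKO and not named here, beside 0.543% of all genes. In that list 4 had a log2 fold change above 0 and 6 below. Fasn, the fatty acid synthase, named after its values were seen, was at 9.06 and 10.4 FPKM in WT and at 18.1 and 16.6 FPKM in LKO (log2 fold change 0.83, unadjusted p = 0.024 by limma), short of the 2-fold limit. Of 7 genes that follow body temperature none passed the threshold, also none at an unadjusted p under 0.05, and the largest change was that of Hspa1a, an inducible HSP70, at 2.91 and 6.45 FPKM in WT and at 2.52 and 23.0 FPKM in LKO (log2 fold change 0.81, unadjusted p = 0.277 by limma). The summed level of those 7 was 98.5 and 170 FPKM in WT and 76.5 and 292 FPKM in LKO, lowest and highest in the same LKO livers as Nr1d1 as deposited. Hspa8 made up most of that sum, at 43.1 and 191 FPKM in LKO. Of the 7, 5 were higher in LKO replicate 2, as deposited by 4.43-fold (Hspa8) to 10.1-fold (Hsph1), and 2 in LKO replicate 1. The latter were Cirbp (2.84 and 1.22 FPKM in LKO) and Rbm3 (21.8 and 18.4 FPKM in LKO).

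Markers of other liver cells also differed between the LKO livers. The 7 macrophage markers summed to 30.7 and 30.5 FPKM in WT and to 38.8 and 80.1 FPKM in LKO, all 7 with a log2 fold change above 0, and 2 of them (Cd68 and Vsig4) rose past the threshold, beside the 0.437% of all genes given above. Without LKO replicate 2 Cd68 stood at a log2 fold change of 1.05, still past it, and Vsig4 at 0.15. Vsig4 lay at the limit, with a log2 fold change of 1.00 (unadjusted p = 0.049 by limma), and did not pass after rescaling or without either WT liver. Endothelial markers summed to between 22.7 and 28.0 FPKM and stellate cell markers to between 18.2 and 22.5 FPKM in the 4 livers. Neutrophil markers summed to between 4.19 and 16.2 FPKM, with Ly6g and Ngp at 0 in at least 1 liver and not tested. LKO replicate 2 thus had the highest Nr1d1 and Nr1d2 levels together with the highest macrophage sum and the highest temperature sum, in which Hspa8 weighed most. The part of these in the clock gene levels was not tested.

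The genes whose pattern over the 4 livers lay nearest to that of Npas2, by Euclidean distance of centred log2(FPKM + 0.1) among the 7728 genes that averaged 1 FPKM or more, were L3mbtl3 (0.131), Cyp2b10 (0.216), Cntfr (0.245), Nedd9 (0.289) and Asic5 (0.297). For the nearest, L3mbtl3, the levels were 1.95 and 1.73 FPKM in WT and 1.14 and 0.928 FPKM in LKO. Nearest to Nr1d1 were Gtf3c5 (0.123), Serpina10 (0.125), Papss1 (0.196) and Tmem125 (0.197). Serpina10 was at 61.7 and 40.7 FPKM in WT and at 35.4 and 105 FPKM in LKO, the same order of livers as Nr1d1. A likeness over 4 livers describes the order of these libraries and says nothing of shared control.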

How the data were processed

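RNA-seq of 4 mouse livers (2 WT, 2 LKO) was taken from the deposited table of FPKM values, made by the authors by trimming with Trimmomatic, alignment with HISAT2 to GRCm38 and quantification per transcript entry. The submitters' processing notes name HISAT2 2.0.4 and StringTie 2.1.4, while the methods name Cufflinks. The sources also differ on the sequencing platform. The table had 22103 entries, of which 5250 were 0 in every liver, 83 shared a symbol, and 27 symbols turned into dates were restored. Read numbers were estimated from FPKM, transcript length (98.3% of entries) and library total. Between 88.6% and 89.7% of low values came within 0.1 of a whole read per liver, and the counting intervals (95%) cover counting error only.

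LKO was compared with WT by limma 3.58.1 (R 4.3.3), with moderated variances that follow the mean level, on log2(FPKM + 0.1) in the 12346 entries with a mean of at least 0.1 FPKM, with Benjamini-Hochberg adjustment over all of them, so that a fold change is on the log2(FPKM + 0.1) scale and understates the change of low genes. The threshold was an unadjusted p under 0.05 and over 2-fold. Python 3.11.15 and SciPy 1.17.1 served for the other steps. Samples are livers of separate mice per the methods. The numbers of WT and LKO replicates were not treated as pairs, as the labels give no pairing. Their deviations correlated at r = 0.03, a value that takes no account of a shift common to all genes. Alternatives were other pseudocounts, filters, scalings, voom, a replicate block, and each liver left out.

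The members and lists were chosen with earlier results of these data known. Named genes were the members, the 2 largest changes in each list of other clock genes, those past the threshold or largest in the glucocorticoid, feeding and temperature lists, and the 5 genes nearest in pattern to the widest-ranging member of each arm. Other genes were named after their values were seen. Some genes that this rule takes are not reported here.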

Additional observations from a re-analysis of the deposited data

How the results depend on the processing

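None of the 10 members passed the threshold in the analysis as reported or after rescaling, quantile normalization, other pseudocounts or other filters. With voom on estimated reads 1 did (Npas2), and with 1 liver left out the number ranged from 0 to 1 (Nr1d1, without LKO replicate 1). For the 32 other clock genes it ranged from 0 to 8 with 1 liver left out (2 without WT replicate 1, 8 without LKO replicate 1, 6 without LKO replicate 2), Ciart and Lpin1 being among those past it without each LKO liver in turn. Each of these fits leaves a single liver in 1 group. The number past the threshold over all genes also rose without WT replicate 1 and without either LKO replicate. The counts are therefore not read as a result about clock genes. The cause of the rise was not tested. With a replicate block 0 members and 0 other clock genes passed. The deviations of same-numbered livers correlated at r = 0.03 across 12346 genes. That r takes no account of a shift common to all genes, so a shared batch of same-numbered livers was not tested by it.

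Members over 2-fold apart within WT numbered 2 with a pseudocount of 0.01 (Per2 and Per3). Within LKO they numbered 2 with a pseudocount of 0.01 (Per3 and Nr1d1), 0 with a pseudocount of 1 and 0 with a minimum mean of 1 FPKM, under which 5 members were tested and 0 had groups that did not overlap. The phase contrast difference was -0.11 without Npas2, an alternative chosen after seeing the data. It was -0.24 with a minimum mean of 1 FPKM, which also leaves Npas2 out. With Npas2 included it ranged from -0.56 to -0.16.

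With 1 liver left out the log2 fold change took both signs for Arntl (-0.044 to 0.21), Per1 (-0.12 to 0.19), Per2 (-0.22 to 0.73), Per3 (-0.56 to 0.36), Cry1 (-0.53 to 0.16), Nr1d1 (-0.51 to 1.09), Tef (-0.059 to 0.60) and Dbp (-0.035 to 0.034). Dbp was at 0.029 after rescaling, 0.041 after quantile normalization and 0.0016 with voom. Npas2 and Bhlhe41 kept their direction under every alternative in which they were tested (all but the minimum of 1 FPKM), from -1.29 to -0.19 for Npas2. Over all genes 121 passed the threshold, 18 with a pseudocount of 1 and 167 with 0.01. At 27 to 108 reads a liver, Npas2 was the member most limited by depth beside Bhlhe41.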
